A study of Mus musculus with 8 samples.

Results

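Muscle ubiquitin ligases and mitophagy genes were followed in mouse hearts after myocardial infarction (MI). The 10 genes were taken by name from the deposited gene table: the ligases Fbxo32, Trim63, Trim54 and Trim55, the mitophagy receptors Bnip3, Bnip3l and Fundc1, the mitophagy kinase Pink1, and the transcription factors Foxo1 and Foxo3. All 10 were among the 33249 genes of the table and among the 14028 that passed the filter on low values, a mean of at least 0.5 FPKM (fragment counts scaled by transcript length and library size) over the 8 libraries. RNA sequencing of myocardium compared Piezo1 floxed mice (fl/fl) with mice in which Piezo1, a stretch-gated cation channel, was to be deleted from cardiomyocytes (CKO), after sham surgery or MI. Each of the 4 groups, fl/fl-Sham and CKO-Sham without infarction, fl/fl-MI and CKO-MI with it, held 2 libraries.

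The CKO mice carried the floxed Piezo1 alleles together with a tamoxifen-inducible Cre recombinase driven by the promoter of Myh6, the cardiomyocyte alpha myosin heavy chain gene, and their fl/fl littermates carried the same floxed alleles without the Cre transgene. Deletion was induced at 4 weeks of age with tamoxifen at 75 mg/kg/day for 5 days, and surgery followed at 8 weeks. MI was produced by tying off the left anterior descending artery for good, sham mice were operated on without the tie, and the MI hearts were labelled as taken on day 42. Because the Myh6 promoter acts in cardiomyocytes, other cells of a CKO heart keep Piezo1. Whether fl/fl mice received tamoxifen is not given in the sources used here. The sham libraries carry no day in their labels. The labels do not say whether the 2 libraries of a group came from separate mice, so the tests measure the spread between these libraries.

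In muscle, worn or damaged proteins are tagged with ubiquitin by ligases that recognise them, and the tagged proteins are broken down by the proteasome. Fbxo32 (atrogin-1) and Trim63 (MuRF1) are the classic markers of muscle wasting and are switched on by FoxO transcription factors when insulin and Akt signalling falls. Mitochondria are removed in parallel by mitophagy, either through receptors on the outer membrane that bind the autophagosome directly, such as Bnip3, Bnip3l (Nix) and Fundc1, or through the kinase Pink1, which accumulates on depolarised mitochondria and starts their ubiquitin tagging. Cardiac muscle depends on both systems for the turnover of its sarcomeres and its dense mitochondrial network.

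Promoter sequences of 3 genes are shown. Trim63 is known as a FoxO and glucocorticoid target and Bnip3 as a target of the hypoxia-inducible factors (HIF), and Trim54 is shown beside Trim63 as a ligase of the same family whose level moved differently. RefSeq promoter windows on GRCm38.p6, reaching 250 bases before the annotated start, were at hand for 7 of the 10 genes. Entries for Fbxo32, Trim55 and Bnip3l were missing, and bases that lie inside an annotated transcript were removed, which left none for Fundc1. Each sequence is written 5′ to 3′ on the strand of its gene, with motif matches on either strand in capitals.
Trim63, chr4:134314870-134315119, plus strand: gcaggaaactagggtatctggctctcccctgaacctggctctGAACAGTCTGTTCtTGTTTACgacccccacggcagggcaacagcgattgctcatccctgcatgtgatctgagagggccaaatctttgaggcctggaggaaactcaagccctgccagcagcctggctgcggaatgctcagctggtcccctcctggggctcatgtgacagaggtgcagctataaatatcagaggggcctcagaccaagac
Bnip3, chr7:138909520-138909756, minus strand: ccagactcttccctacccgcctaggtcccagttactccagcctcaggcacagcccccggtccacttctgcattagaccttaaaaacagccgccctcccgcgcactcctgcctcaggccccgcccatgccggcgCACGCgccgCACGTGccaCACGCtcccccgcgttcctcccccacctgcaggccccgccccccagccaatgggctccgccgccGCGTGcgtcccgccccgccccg
Trim54, chr5:31116362-31116611, plus strand: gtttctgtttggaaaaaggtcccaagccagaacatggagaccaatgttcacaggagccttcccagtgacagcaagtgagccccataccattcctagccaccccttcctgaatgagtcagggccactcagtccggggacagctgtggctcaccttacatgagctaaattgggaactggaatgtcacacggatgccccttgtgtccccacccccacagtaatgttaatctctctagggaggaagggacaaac

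In the Trim63 window the capitals mark a match to the glucocorticoid response element, GNACA and TGTNC with 3 bases of any kind between them, from position -208 to -196 and the forkhead core TGTTTAC from -194 to -188, counted back from the RefSeq start. Of 32851 windows of this kind, 3.17% held the forkhead core, 0.387% held the glucocorticoid element and 3, or 0.00913%, held both. In the Bnip3 window the E-box CACGTG lay from -108 to -103, and the HIF core ACGTG falls inside it on both strands. The second HIF core, GCGTG, matched at -117 to -113 and -99 to -95 on the opposite strand and at -35 to -31 on the strand of the gene. ACGTG occurred in 16.6% of all windows, GCGTG in 28.2% and CACGTG in 6.02%. None of the 5 motifs was found in the Trim54 window, and of the other windows those of Foxo1, Foxo3 and Pink1 held GCGTG alone. These are matches of letters in short windows, and no binding was measured here.

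Depth was even, with 73821747 to 88117573 deposited counts per library, and each of the 10 genes had at least 865 counts in every library. Counting error was not compared with the spread between libraries. The share of mitochondrially encoded genes was 43.1% to 46.4% in sham and 19.9% to 24.2% in MI libraries. Levels are therefore given as CPM, counts scaled to the library size and by TMM, which sets the typical gene equal between libraries. Of the markers of the labelled tissue, 10 of 10 cardiomyocyte genes passed the filter, and skeletal muscle markers summed to at most 10.8 CPM. Esr1, whose sequence is part of the inducible Cre transgene, stood at 5.52 to 8.36 CPM in the 4 sham libraries, CKO included. After MI it was at 7.75 CPM in fl/fl-MI 1 but at 331, 707 and 402 CPM in the libraries labelled fl/fl-MI 2, CKO-MI 1 and CKO-MI 2. Piezo1 itself ranged from 72.2 to 88.3 CPM in sham and from 53.5 to 64.8 CPM in MI libraries and was no lower in the libraries labelled CKO. The genotype labels are thus in doubt for some libraries, while MI and sham libraries are set apart by their mitochondrial share. The library labelled fl/fl-MI 2 also carried 19857 CPM of the 5 atrial markers, against 2547 to 4450 CPM in the other MI libraries and 135 to 594 CPM in sham. In those other MI libraries nearly all of the sum was Nppa, at 4400 CPM in fl/fl-MI 1, 4419 CPM in CKO-MI 1 and 2520 CPM in CKO-MI 2. Bmp10 was at 3834 CPM in fl/fl-MI 2 and at 10.3 to 18.8 CPM in all other libraries, and Myl4 at 2810 CPM and at 10.2 to 48.0 CPM. The main comparison accordingly took all 4 MI against all 4 sham libraries, and for comparisons between genotype labels that include the library labelled fl/fl-MI 2 the values with it omitted are given as well. High Esr1 was found only among MI libraries, so in the main comparison MI and the transgene signal cannot be fully told apart. Within the CKO label they coincide in every library and cannot be told apart at all.

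MI was followed by higher levels of 5 of the 10 genes and lower levels of none: Fbxo32, Trim63 and Trim55 among the ligases, Fundc1 among the mitophagy genes, and Foxo3 (edgeR quasi-likelihood test, Benjamini-Hochberg adjusted p under 0.05 over all tested genes, averaged over both genotype labels). Across all tested genes 40.4% passed, 22.0% in the upward direction. The remaining 5, Trim54, Bnip3, Bnip3l, Pink1 and Foxo1, did not pass. In each of the 5 that passed, the lowest MI library lay above the highest sham library, a separation that 20.9% of all tested genes showed in the upward direction. The median of all tested genes was 0.03 on the log2 scale with TMM and 0.59 on total counts without it. On total counts 9 of the 10 passed upward, as did 7296 of all tested genes with 805 passing downward, so values are also given relative to that median.

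**Figure D1:**
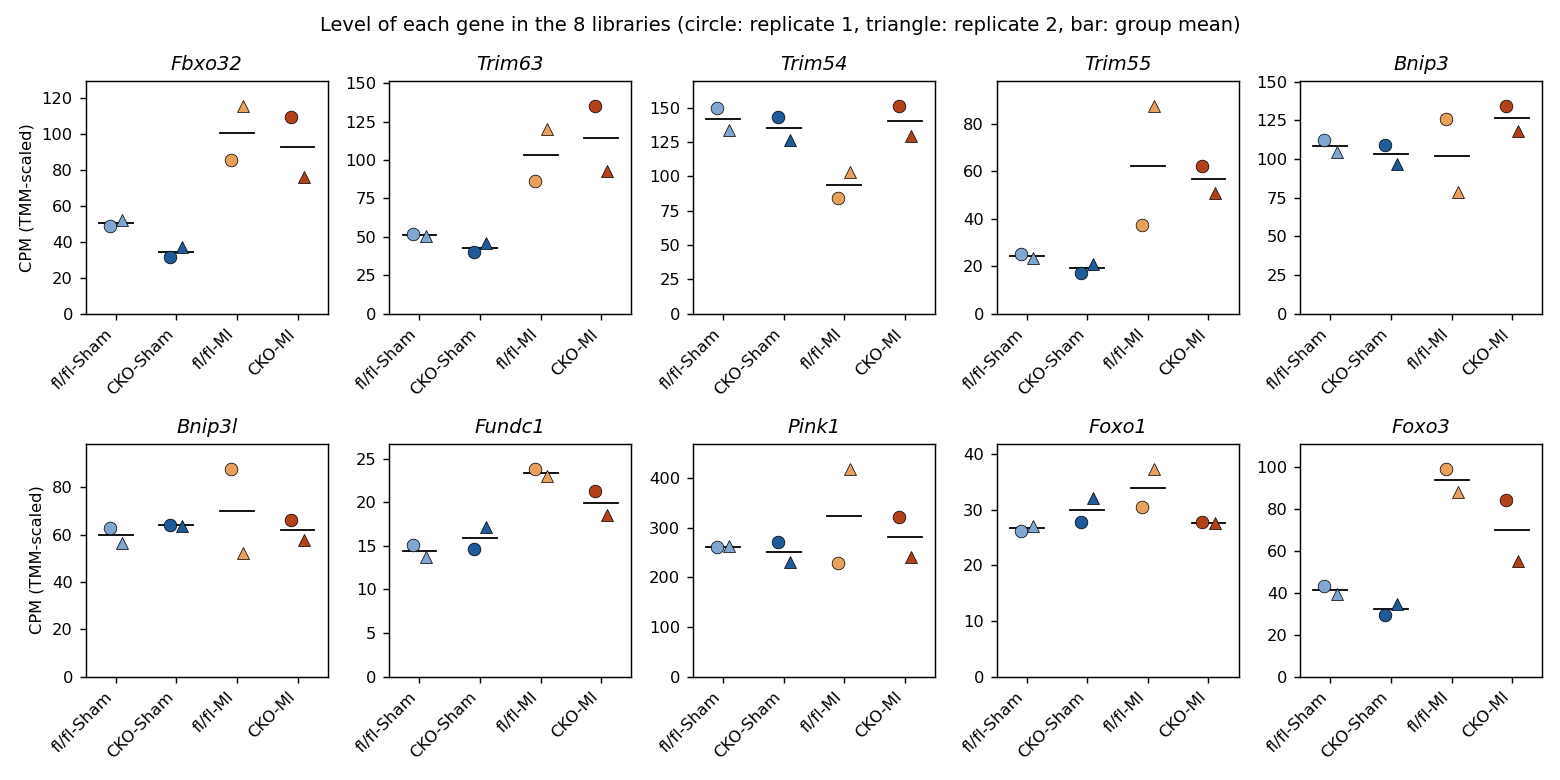
TMM-scaled CPM (y axis, linear from 0) of each of the 10 genes in the 4 groups (x axis), with circles for replicate 1, triangles for replicate 2 and bars for group means. The MI libraries sit above all sham libraries for Fbxo32, Trim63, Trim55, Fundc1 and Foxo3 and mix with them for the other 5.

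Fbxo32 (ENSMUSG00000022358, chr15:58175879-58214932, minus strand) encodes atrogin-1, the substrate-binding subunit of a Cullin-based ligase that marks calcineurin and translation factors in muscle. Its level was 48.6 and 51.8 CPM in the fl/fl-Sham libraries, 31.3 and 37.2 CPM in CKO-Sham, 85.3 and 115 CPM in fl/fl-MI hearts, and 109 and 75.8 CPM in CKO-MI hearts. Both genotype labels therefore rose without overlap, from 42.2 ± 9.60 CPM in sham to 96.4 ± 18.9 CPM in MI (SD, n = 4 each). The increase was 2.32-fold (log2 fold change 1.22, SE 0.16, edgeR adjusted p = 0.0020). The exact two-sided permutation test of 4 against 4 libraries gave p = 0.0286, the smallest it can give, which follows from the lack of overlap. Only 1 transcript is listed for the gene, and an antisense gene at its 5′ end, Gm15943, had 37 to 579 counts against 2264 to 9555 for Fbxo32. The strand setting of the counting is not given in the sources used here.

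Trim63 (ENSMUSG00000028834, chr4:134315120-134329629, plus strand), whose promoter is printed above, encodes MuRF1, a RING finger ligase at the M-band and Z-disc that tags myosin and troponin I. It was measured at 52.0 and 50.9 CPM in fl/fl-Sham, 40.0 and 45.7 CPM in CKO-Sham, 86.3 and 120.4 CPM in fl/fl-MI hearts, and 135 and 93.1 CPM in CKO-MI hearts. All MI libraries were above all sham libraries, with means of 109 ± 23.0 and 47.2 ± 5.50 CPM (SD, n = 4 each). The increase was 2.31-fold (log2 fold change 1.21, SE 0.17, edgeR adjusted p = 0.0022), close in size to that of Fbxo32. The protein-coding transcript held 99.4% to 99.7% of the gene's transcript FPKM in MI libraries. In sham libraries it held 92.1% to 99.1%, while a non-coding processed transcript of the gene took 7.42% in fl/fl-Sham 2, between 0.632% and 1.28% in the other 3 sham libraries, and at most 0.103% after MI. The lower limit of the coding transcript, 92.1%, was also that of fl/fl-Sham 2, and the other sham libraries were at 97.9% or more.

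Trim55 (ENSMUSG00000060913, chr3:19644474-19692421, plus strand) encodes MuRF2, a relative of MuRF1 that binds titin and microtubules. The gene was at 25.4 and 23.4 CPM in fl/fl-Sham and at 17.1 and 21.1 CPM in CKO-Sham. After MI, fl/fl hearts had 37.2 and 87.6 CPM and CKO hearts 62.3 and 50.9 CPM. The groups did not overlap, and among the MI libraries the one labelled fl/fl-MI 2 was highest and fl/fl-MI 1 lowest. The average increase was 2.75-fold (log2 fold change 1.46, SE 0.26, edgeR adjusted p = 0.0056), the largest of the 10 genes with all libraries, and was between 1.09 and 1.69 on the log2 scale when single libraries were left out. The rank rests on fl/fl-MI 2, since with that library omitted Trim55 was at 1.09, Fbxo32 at 1.10 and Foxo3 at 1.19. A non-coding gene on the same strand, BC002189, lies within Trim55 and had 24 to 158 counts.

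Trim54 (ENSMUSG00000062077, chr5:31116712-31137630, plus strand) encodes MuRF3, which binds microtubules and the Z-disc. It was the only ligase of the 4 without higher levels after MI. Sham libraries had 149.96 and 134 CPM in fl/fl-Sham and 143 and 127 CPM in CKO-Sham. After MI, fl/fl hearts had 84.3 and 103 CPM and CKO hearts 151 and 129.5 CPM. The fl/fl-MI libraries lay below all 6 others and the CKO-MI libraries within the sham range or just above it. The average change of -0.27 on the log2 scale (SE 0.12, edgeR adjusted p = 0.111) did not pass. It was past the threshold, at -0.35, both when fl/fl-MI 2 was omitted (adjusted p = 0.0341) and among genes with a mean of at least 5 FPKM (adjusted p = 0.0286). On total counts the sign turned, to 0.28 (adjusted p = 0.0551), and on the FPKM values limma gave 0.29 (adjusted p = 0.0446 with a pseudocount of 1). Relative to the median of all genes Trim54 was lower by 0.12 to 0.34 on the log2 scale under each of the 8 scalings tried, while Fbxo32, Trim63 and Trim55 were above that median by 1.11 to 1.43.

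Bnip3 and Bnip3l, the paired outer membrane receptors that respond to hypoxia, showed no shared change. Bnip3 (ENSMUSG00000078566, chr7:138890836-138909519, minus strand) was at 112 and 104 CPM in fl/fl-Sham, 109 and 96.9 CPM in CKO-Sham, 126 and 78.7 CPM in fl/fl-MI hearts, and 134 and 118 CPM in CKO-MI hearts. In 3 MI libraries the level was above every sham library and in the library labelled fl/fl-MI 2 it was below every one. The log2 fold change was 0.10 (SE 0.16, edgeR adjusted p = 0.632). Omitting fl/fl-MI 2 gave 0.25 (adjusted p = 0.0716) and omitting fl/fl-MI 1 turned the sign, to -0.10 (adjusted p = 0.452).

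Bnip3l (ENSMUSG00000022051, chr14:66985239-67008877, minus strand) repeated the split within fl/fl-MI. It was at 62.8 and 56.5 CPM in fl/fl-Sham, 64.3 and 63.5 CPM in CKO-Sham, 87.9 and 52.1 CPM in fl/fl-MI hearts, and 66.3 and 57.5 CPM in CKO-MI hearts. The highest and the lowest of the 8 libraries were thus those labelled fl/fl-MI 1 and fl/fl-MI 2, and the change did not pass (log2 fold change 0.09, SE 0.17, edgeR adjusted p = 0.691). With fl/fl-MI 1 omitted the sign turned, to -0.14, and with fl/fl-MI 2 omitted the change was 0.26 (adjusted p = 0.0585). Bnip3l was also the only one of the 10 genes with 2 coding transcripts at comparable levels. The longer one, with 7 exons, took 36.9% to 47.5% of the transcript FPKM in sham and 39.9% to 45.1% in MI libraries, and the one with 6 exons took 51.6% to 62.6% and 53.2% to 59.0%, so these ranges overlapped.

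Fundc1 (ENSMUSG00000025040, chrX:17556564-17572325, minus strand), the receptor that is dephosphorylated when oxygen is low, was the mitophagy gene whose levels separated. The 4 sham libraries had 15.1, 13.7, 14.7 and 17.1 CPM, the fl/fl-MI libraries 23.9 and 23.0 CPM, and the CKO-MI libraries 21.3 and 18.6 CPM. The lowest MI value exceeded the highest sham value by a small margin. The increase was 1.43-fold (log2 fold change 0.51, SE 0.11, edgeR adjusted p = 0.0109). It stayed past the threshold in 17 of 20 alternatives, the adjusted p being 0.0560 without fl/fl-Sham 2, 0.0505 without CKO-Sham 1 and 0.0609 with cardiomyocyte markers as the library size.

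Pink1 (ENSMUSG00000028756, chr4:138313409-138326307, minus strand) was at 261 and 263 CPM in fl/fl-Sham, 271 and 230.0 CPM in CKO-Sham, 229 and 419 CPM in fl/fl-MI hearts, and 321 and 242 CPM in CKO-MI hearts. The MI libraries reached from just under the lowest sham library to well over the highest, with the library labelled fl/fl-MI 2 at the top. The log2 fold change was 0.24 (SE 0.21, edgeR adjusted p = 0.393). It was -0.01 (adjusted p = 0.943) once fl/fl-MI 2 was omitted and 0.41 (adjusted p = 0.0455) once fl/fl-MI 1 was, so that the call rests on which of this pair is kept. A short coding transcript of Pink1 with 3 exons took 1.24% to 4.14% of the transcript FPKM in sham and 0.0887% to 0.348% in MI, without overlap. Its deposited counts were 118 to 363 in sham and 20 to 51 in MI libraries, and the transcript with 8 exons held the rest. The non-coding transcript of Trim63 also had a lower share in MI without overlap. So did a coding transcript of Foxo3 with 1316 bases, at 0.711% to 3.87% in sham and at most 0.303% in MI, on at most 20 counts. How many transcripts of all genes separated in this way was not counted.

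The transcription factors differed from each other. Foxo3 (ENSMUSG00000048756, chr10:42181841-42276752, minus strand) was at 43.4 and 39.6 CPM in fl/fl-Sham, 29.5 and 34.8 CPM in CKO-Sham, 99.3 and 88.3 CPM in fl/fl-MI hearts, and 84.2 and 55.4 CPM in CKO-MI hearts. Every MI library was above every sham library, and the increase was 2.22-fold (log2 fold change 1.15, SE 0.15, edgeR adjusted p = 0.0020). Foxo1 (ENSMUSG00000044167, chr3:52268336-52353221, plus strand) was at 26.3 and 27.1 CPM in fl/fl-Sham, 27.7 and 32.0 CPM in CKO-Sham, 30.5 and 37.4 CPM in fl/fl-MI hearts, and 27.9 and 27.5 CPM in CKO-MI hearts. Its groups overlapped and the change did not pass (log2 fold change 0.12, SE 0.10, edgeR adjusted p = 0.390). Both factors are held in the cytoplasm by Akt phosphorylation, which RNA levels do not show.

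Levels between genes were compared on the FPKM scale, which is per length. In sham hearts Trim54 and Pink1 were highest, with medians of 78.4 and 78.1 FPKM over 4 libraries and overlapping ranges. Bnip3 followed at 38.1 FPKM, apart from both neighbours, and then Trim63 at 13.3 and Bnip3l at 12.7 FPKM, which overlapped. Trim55, Fundc1, Fbxo32 and Foxo3 had medians of 6.73, 4.97, 4.77 and 3.95 FPKM, each overlapping the next, and Foxo1 lay below all of them, at most 2.90 FPKM. After MI the order was Pink1 at 122 and Trim54 at 96.1 FPKM, with overlapping ranges, then Bnip3 at 65.2 and Trim63 at 43.7 FPKM, which also overlapped. Trim55 reached a median of 24.8 FPKM, overlapping Bnip3l at 18.8 FPKM and set apart from Trim63 above it, and Foxo1 was again lowest. Between the treatments the median of all tested genes shifted by 0.41 on the log2(FPKM + 1) scale, so these orders are read within a treatment. They rest on the deposited gene values, and the transcript values differ. The main Trim63 transcript alone was at 16.8 to 21.1 FPKM in sham, against 11.3 to 14.8 FPKM for the gene. The main transcripts of Pink1 and Trim54 were at 123 to 191 and 74.9 to 114 FPKM in MI, without overlap.

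The MI libraries also differed in their cell markers, which bear on any level in bulk tissue. In bulk tissue fewer cells of a type and less RNA per cell cannot be told apart. The summed level of 10 cardiomyocyte markers was 39706 to 45581 CPM in sham libraries. After MI it was 25034 and 44207 CPM for the fl/fl label and 45155 and 29485 CPM for the CKO label, so 2 of the 4 were below the sham range. The 7 fibroblast markers all passed the test upward, from 1406 to 1551 CPM in sham to 2218 to 6406 CPM in MI, and the 5 endothelial markers all passed downward, from 1386 to 1468 CPM to 442 to 671 CPM. Macrophage markers summed to 176 to 230 CPM in sham and 158 to 349 CPM in MI libraries, with 2 of 6 passing upward, and smooth muscle markers to 148 to 289 and 152 to 249 CPM, with 1 of 3 passing downward. Erythroid markers were at 79.7 to 551 CPM in sham and 272 to 753 CPM in MI, with 5 of 5 passing upward, and adipocyte markers at 887 to 1447 and 313 to 421 CPM, with 1 of 4 passing downward. Most of the adipocyte sum was Fabp4, at 835 to 1416 CPM in sham and 270 to 379 CPM in MI. The other adipocyte markers, Adipoq, Plin1 and Cfd, overlapped between sham and MI. Lymphocyte markers summed to at most 8.87 CPM. Of the 8 skeletal muscle markers 7 were in the deposited gene table. The part of these shifts in the results was not tested beyond the ratio that follows.

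Relative to the cardiomyocyte markers, 6 of the 10 genes were higher in every MI library than in every sham library, against 21.8% of all tested genes. Fbxo32 was at 0.755 to 1.14 CPM per 1000 CPM of markers in sham and 2.42 to 3.41 in MI, a 2.80-fold difference, Trim63 differed by 2.78-fold and Trim55 by 3.22-fold. Foxo3 differed by 2.68-fold, Fundc1 by 1.74-fold and Pink1 by 1.40-fold. The exact two-sided permutation p of each of the 6 was 0.0286, the smallest possible with 4 against 4 libraries. Any gene that separates fully has this p, so it adds nothing to the separation. In edgeR with the same markers as library size Fbxo32, Trim63, Trim55 and Foxo3 passed, and Fundc1 (log2 fold change 0.84, adjusted p = 0.0609) and Pink1 (0.49, adjusted p = 0.112) did not. Leaving out each of the 10 markers in turn kept the separation in 10 of 10 cases for Fbxo32, Trim63, Trim55 and Foxo3 and in 9 of 10 for Fundc1 and Pink1. Trim54 had a ratio of 2.93 to 3.45 in sham and 2.33 to 4.39 in MI libraries, and Bnip3, Bnip3l and Foxo1 overlapped as well. This ratio was added after the data had been seen, and some of its markers themselves changed after MI (2 of 10 upward and 3 of 10 downward).

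**Figure D2:**
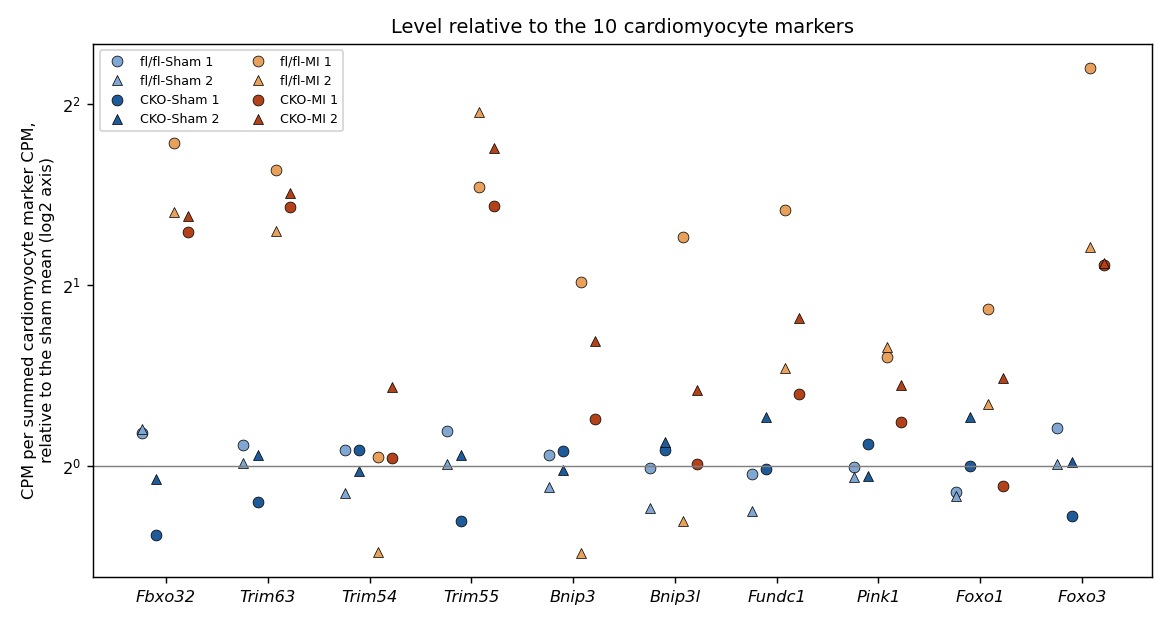
Level of each gene divided by the summed level of 10 cardiomyocyte markers, relative to the mean of the 4 sham libraries (y axis, log2-scaled), with 1 point for each of the 8 libraries. Blue points are sham and orange to red points MI libraries. Fbxo32, Trim63, Trim55 and Foxo3 stand 2.68-fold to 3.22-fold above sham on average, and Trim54 does not separate.

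Within the fl/fl label alone, 5 of the 10 genes passed the test upward and none downward, against 10.1% of all tested genes upward and 18.5% in either direction. They were Fbxo32 (2.0-fold, edgeR adjusted p = 0.0286), Trim63 (2.01-fold, 0.0292), Trim55 (2.56-fold, 0.0455), Fundc1 (1.63-fold, 0.0268) and Foxo3 (2.26-fold, 0.0148). Trim54 was 1.51-fold lower, without overlap, as were 29.5% of all tested genes, and missed the threshold (log2 fold change -0.60, SE 0.17, edgeR adjusted p = 0.0505). These calls are near the threshold: none held without fl/fl-Sham 1 or without fl/fl-Sham 2, each of which leaves a single fl/fl-Sham library. Most also fell short without CKO-Sham 1 or without CKO-Sham 2, which enter only through the shared estimate of the spread. Calls over all tested genes fell in these fits too. With fl/fl-MI 2 omitted, which leaves a single fl/fl-MI library, Trim55 was at 0.61 on the log2 scale in place of 1.36. Bnip3l was then at 0.56 and Trim54 at -0.75. With only the 4 libraries of this comparison in the fit, none of the 10 passed, and 199 of all tested genes did. Called instead by unadjusted p under 0.05 with at least 2-fold change, 3 of the 10 passed, against 15.4% of all tested genes.

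Within the CKO label, 4 of the 10 passed upward and none downward, against 12.8% of all tested genes upward and 24.7% in either direction. Fbxo32 was 2.70-fold higher (edgeR adjusted p = 0.0086), Trim63 2.66-fold (0.0094), Trim55 2.96-fold (0.0254) and Foxo3 2.17-fold (0.0145). Fundc1 did not pass here (log2 fold change 0.33, SE 0.16, adjusted p = 0.167) and Trim54 was level (0.06, SE 0.17, adjusted p = 0.827). No call of the 4 held without CKO-Sham 1 or without CKO-Sham 2, each of which leaves a single CKO-Sham library, and not all held without CKO-MI 1. Calls over all tested genes fell in these fits too. Trim55 passed in 2 of the 8 fits with a library left out. In both labels the direction of these 4 genes held whichever library was left out.

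**Figure D3:**
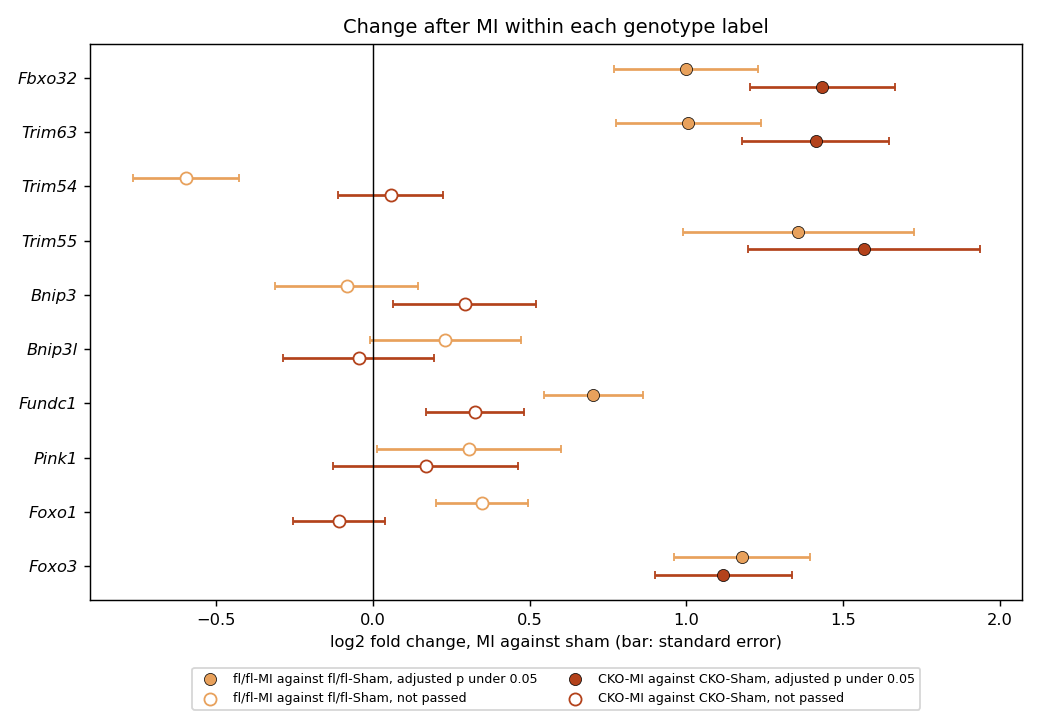
Log2 fold change after MI (x axis) of each of the 10 genes within the fl/fl label (orange) and within the CKO label (red), with bars for the standard error and filled points where the adjusted p was under 0.05. Fbxo32, Trim63, Trim55 and Foxo3 are filled in both labels, Fundc1 in fl/fl alone, and Trim54 lies at -0.60 in fl/fl and 0.06 in CKO.

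Whether the MI effect differed between the labels was asked with an interaction term, and no gene of the 10 passed, nor did any of the 14028 tested genes (1191, or 8.49%, had an unadjusted p under 0.05, and DESeq2 called 130). The count over all genes depended on the fl/fl-MI libraries, with 751 genes past the threshold once fl/fl-MI 1 was omitted and 5 once fl/fl-MI 2 was, none of the 10 among them. Trim54 had an unadjusted p of 0.0285 there (log2 difference 0.65, SE 0.24, adjusted p = 0.574; 0.81 and adjusted p = 0.175 with fl/fl-MI 2 omitted), and the other 9 genes were above 0.05. The difference for Fundc1 was -0.38 (SE 0.22, adjusted p = 0.678), so its call in one label alone is not a shown difference between labels.

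After MI the CKO and fl/fl labels did not differ in any of the 10 genes at an adjusted p under 0.05, and 0 of all tested genes passed in edgeR (1166, or 8.31%, at an unadjusted p under 0.05, and 207 in DESeq2, none of the 10 among them). Trim54 had the smallest p of the 10. It was at 151 and 129.5 CPM in CKO-MI against 84.3 and 103 CPM in fl/fl-MI, higher without overlap (log2 fold change 0.58, SE 0.17, edgeR adjusted p = 0.549), a separation that 14.5% of all tested genes showed upward. With fl/fl-MI 2 omitted the value was 0.74 (adjusted p = 0.178). Foxo3, Fundc1 and Foxo1 were lower in both CKO-MI libraries than in both fl/fl-MI libraries, by 0.43, 0.23 and 0.29 on the log2 scale, with adjusted p of 0.651, 0.735 and 0.651, and 15.5% of all tested genes were lower without overlap. With fl/fl-MI 2 omitted they were at -0.51, -0.26 and -0.14 (adjusted p of 0.466, 0.619 and 0.763). The signs of Fbxo32, Trim63, Trim55, Bnip3l and Pink1 depended on which fl/fl-MI library was kept. Trim55 was at -0.61 once fl/fl-MI 1 was omitted and 0.60 once fl/fl-MI 2 was, Pink1 at -0.56 and 0.30, Bnip3l at 0.27 and -0.51, Fbxo32 at -0.30 and 0.12, and Trim63 at -0.059 and 0.40. Leaving out other libraries moved Fbxo32 and Trim63 further. Over all fits with a library left out they spanned -0.39 to 0.16 and -0.14 to 0.42.

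Bnip3 was 1.24-fold higher in CKO-MI than in fl/fl-MI with all libraries (log2 fold change 0.31, SE 0.23, edgeR adjusted p = 0.750). With fl/fl-MI 1 omitted, when 1674 of all tested genes passed, Bnip3 passed as well (log2 fold change 0.70, adjusted p = 0.0391). Without fl/fl-MI 2, the library with Esr1 signal and atrial markers, 27 genes passed and Bnip3 was level (0.01, adjusted p = 0.992). The call for Bnip3 thus rests on the library labelled fl/fl-MI 2.

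**Figure D4:**
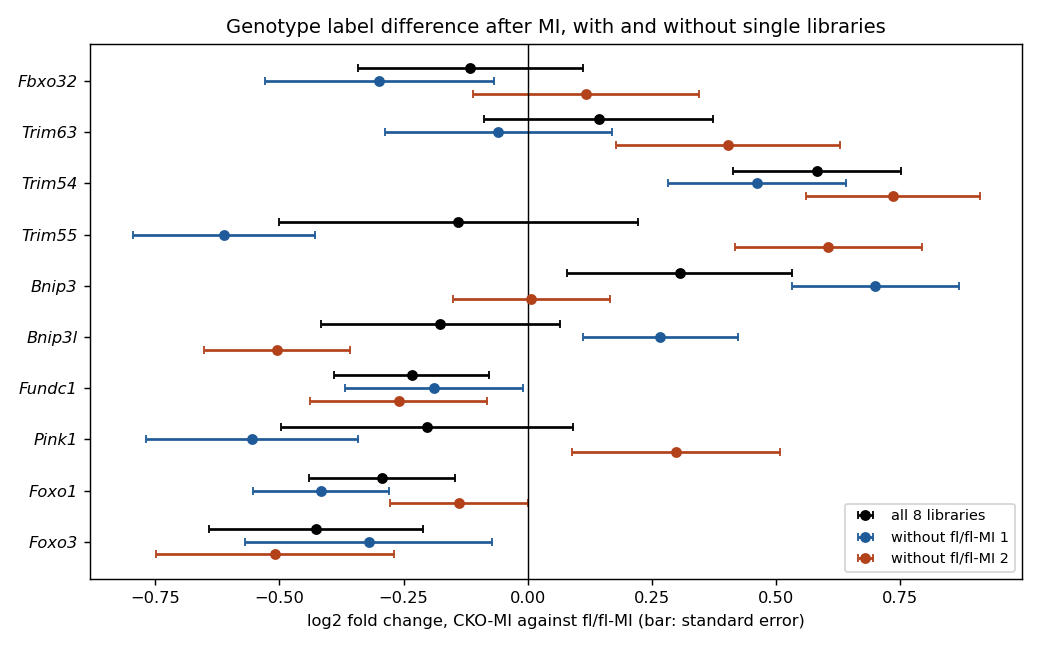
Log2 fold change between the MI groups, CKO over fl/fl (x axis) for the 10 genes with all 8 libraries (black), without fl/fl-MI 1 (blue) and without fl/fl-MI 2 (red), with bars for the standard error. Trim54 stays above 0 in all 3 fits, whereas Fbxo32, Trim63, Trim55, Bnip3l and Pink1 change sign with the library left out.

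In sham hearts none of the 10 differed between the labels, and 1 of all tested genes, 0.00713%, passed (546, or 3.89%, at an unadjusted p under 0.05, and 34 in DESeq2). Fbxo32 was at 31.3 and 37.2 CPM in CKO-Sham against 48.6 and 51.8 CPM in fl/fl-Sham (log2 fold change -0.55, SE 0.23, edgeR adjusted p = 0.9997). Trim63, Trim55 and Foxo3 were also lower in both CKO-Sham libraries than in both fl/fl-Sham libraries, by 0.26, 0.35 and 0.37 on the log2 scale, none of them past the threshold. Bnip3l and Foxo1 were higher without overlap. Over all tested genes 23.8% were lower and 23.2% higher without overlap in this comparison. The sham libraries labelled CKO carried no Esr1 signal above that of fl/fl-Sham.

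Related genes were counted from lists set out for these pathways. Of 21 other ubiquitin ligases of muscle and heart, 10 passed upward, 5 downward and 6 did not pass after MI, so 71.4% passed against 40.4% of all tested genes. Their median log2 fold change was 0.30 against 0.03 for all genes, and both comparison values hold for the lists that follow. The largest increases were those of Fbxo40, a muscle ligase for the insulin receptor substrate, at 75.2 to 116 CPM in sham and 102 to 393 CPM in MI (log2 fold change 1.33, SE 0.31, edgeR adjusted p = 0.0145), and of Trim72, the membrane repair protein MG53 (0.89, SE 0.12, adjusted p = 0.0023). The largest decreases were those of Neurl2 at -1.02 (SE 0.23, adjusted p = 0.0137) and of the Z-disc ligase component Fbxl22 at -0.99 (SE 0.26, adjusted p = 0.0215). On total counts, where the median of all genes was 0.59, the split was 16 upward and 0 downward. Relative to the median of all genes the list stood at 0.27 with TMM and 0.24 on total counts, and the 7 lists ranged from -0.43 to 0.34 and from -0.46 to 0.33. With fl/fl-MI 2 omitted, a choice made after seeing the data, the median of this list was 0.15 in place of 0.30.

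Of 20 other mitophagy genes tested, 6 passed upward, 1 downward and 13 did not pass (35% passed), with a median of 0.19. Mfn2, an outer membrane fusion protein that Pink1 phosphorylates, rose from 198 to 227 CPM in sham to 370.3 to 687 CPM in MI (log2 fold change 1.25, SE 0.21, edgeR adjusted p = 0.0049). Bcl2l13, a further outer membrane receptor, rose from 27.0 to 36.1 CPM to 54.7 to 73.9 CPM (1.07, SE 0.09, adjusted p = 0.00067), and the inner membrane receptor Phb2 fell (-0.45, SE 0.09, adjusted p = 0.0082). On total counts 15 passed upward and 0 downward. With fl/fl-MI 2 omitted 7 passed upward and 3 downward, with a median of 0.10.

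Of 31 core autophagy genes, 14 passed upward, 1 downward and 16 did not pass (48.4% passed), with a median of 0.32. Wipi1, a phosphoinositide-binding protein of the forming autophagosome, was the gene with the largest increase, from 27.7 to 35.6 CPM in sham to 79.3 to 100.5 CPM in MI (log2 fold change 1.48, SE 0.11, edgeR adjusted p = 0.00054). Lamp2, a lysosomal membrane protein, rose to 207 to 250.2 CPM (0.94, SE 0.11, adjusted p = 0.0012). Map1lc3a, an LC3 protein that Bnip3 and Fundc1 bind, was the gene that fell, from 179 to 239 CPM to 84.4 to 126 CPM (-0.99, SE 0.16, adjusted p = 0.0037). On total counts 27 passed upward and 1 downward.

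Of 27 tested regulators and targets of FoxO, 11 passed upward, 2 downward and 14 did not pass (48.1% passed), with a median of 0.36. Pdk4, the kinase that closes pyruvate dehydrogenase, was at 76.0 to 125 CPM in sham and 202 to 1201 CPM in MI (log2 fold change 2.48, SE 0.47, edgeR adjusted p = 0.0069). Irs2, an insulin receptor substrate, rose from 5.27 to 9.79 CPM to 11.3 to 85.7 CPM (2.24, SE 0.40, adjusted p = 0.0055). Ccng2 and Sirt1 fell by 0.69 and 0.57 on the log2 scale (adjusted p of 0.0028 and 0.0474). On total counts 20 passed upward and 0 downward, and with fl/fl-MI 2 omitted 12 upward and 4 downward.

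Of 14 HIF targets, 5 passed upward, 2 downward and 7 did not pass (50% passed), with a median of 0.38. The collagen prolyl hydroxylase P4ha1 and the HIF prolyl hydroxylase Egln3 rose by 1.52 and 1.5 (SE 0.25 and 0.16, edgeR adjusted p of 0.0040 and 0.0011), whereas Ankrd37 fell by 1.74 and Ndufa4l2 fell by 0.95 on the same log2 scale (SE 0.33 and 0.20, adjusted p of 0.0068 and 0.0095). Ankrd37 was low, at 4.95 to 6.54 CPM in sham and 0.869 to 2.37 CPM in MI. Genes of this list thus moved both ways, and Bnip3, a target of the same factors whose promoter is printed above, did not pass. On total counts 11 passed upward and 1 downward.

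Of 31 subunits of the proteasome core and its regulatory cap, 9 passed upward, 3 downward and 19 did not pass (38.7% passed), with a median of 0.15. The cap subunits Psmd11 and Psmd1 rose most, by 1.22 and 1.04 on the log2 scale (SE 0.09 and 0.10, edgeR adjusted p of 0.00053 and 0.00077). The catalytic core subunits Psmb6 and Psmb5 fell by 0.50 and 0.42 (SE 0.11 and 0.12, adjusted p of 0.0114 and 0.0346), and on total counts 27 passed upward and 0 downward.

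The proteins that MuRF ligases bind or tag were the list with a median under 0, -0.40 over 11 genes, of which 2 passed upward, 4 downward and 5 did not pass (54.5% passed). This list shares Ttn, Myh6, Tnni3, Tnnt2, Myl2 and Myl3 with the cardiomyocyte markers. Of the 4 that passed downward, Myl2, Tnni3 and Myl3 are such markers, so the list is not separate from the marker shift given above. Myh7, the beta myosin heavy chain, was at 685 to 1487 CPM in sham and 607 to 5519.5 CPM in MI (log2 fold change 1.72, SE 0.54, edgeR adjusted p = 0.0419), and Nebl, nebulette, rose from 91.8 to 113 CPM to 229 to 307 CPM (1.34, SE 0.12, adjusted p = 0.00075). The titin cap Tcap fell from 819 to 1420.2 CPM to 185 to 667 CPM (-1.51, SE 0.35, adjusted p = 0.0136). The ventricular myosin light chain Myl2 fell by 1.22 (SE 0.29, adjusted p = 0.0156), and its lowest value, 801 CPM, was in fl/fl-MI 2, the library with high atrial markers. On total counts 5 passed upward and 2 downward. Omitting fl/fl-MI 2 gave this list 3 upward and 6 downward calls and a median of -0.60.

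**Figure D5:**
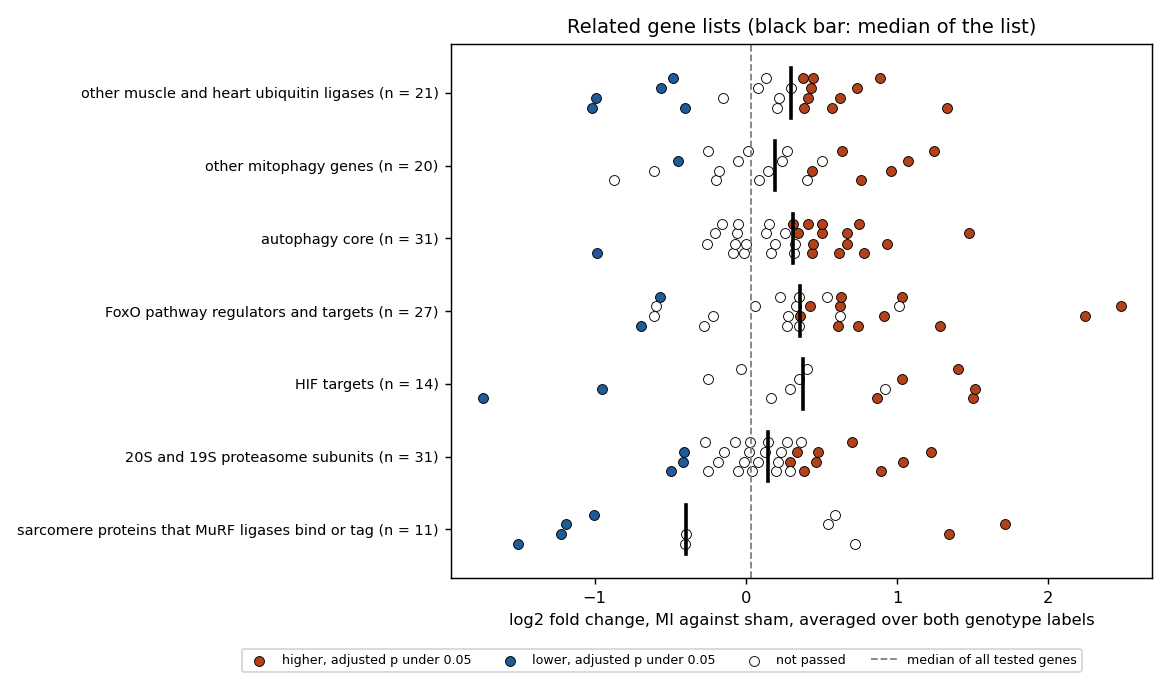
Log2 fold change of MI against sham, averaged over both genotype labels (x axis), for each gene of the 7 lists (y axis, with the number tested). Red and blue points passed the test upward and downward, open points did not pass, black bars are list medians, and the dashed line is the median of all tested genes, 0.03. The sarcomere list alone has its median, -0.40, below that line.

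The genes whose profile over the 8 libraries was closest to a given member were found by the root mean square difference of centred log2 CPM among 13917 genes. Nearest to Fbxo32 were Casq2, the sarcoplasmic reticulum calcium store protein (0.09), Synpo2, an actin-binding Z-disc protein (0.11), and Exoc4 (0.13), and Trim63 ranked 4 in that order. Nearest to Trim63 were Bag2, a co-chaperone that inhibits a ligase of misfolded proteins (0.08), Fsd2 (0.08) and the translation initiation scaffold Eif4g1 (0.10), with Fbxo32 at rank 31. Bnip3 was closest to Tmem168, Zkscan1 and Rpl7l1 (0.08 each), none of which passed the MI test. Pink1 was closest to Slc25a26 and Kctd13 (0.07 each) and to Ulk1, the kinase that starts autophagy (0.09). With 8 libraries in 2 clearly separated treatments, such likeness describes the order of the libraries and no more.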

How the data were processed

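RNA sequencing libraries of mouse myocardium were grouped by the deposited labels. The authors made paired-end libraries from poly(A) RNA, and the submitters' processing notes name cutadapt 1.9 and FastQC. The aligner, counter, genome build and annotation are not given in the sources used here. Of the gene identifiers, 99.7% were found in GENCODE M21 (GRCm38), and 9 of the 10 genes had its start and end. The deposited tables give, per gene and per transcript, a whole-number count without normalization and the authors' FPKM. Low counts pile up at multiples of 4, so counts divided by 4 were tried as an alternative.

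Counts as deposited were tested with the quasi-likelihood F test of edgeR 4.0.16 (R 4.3.3) with TMM scaling, on genes with a mean of at least 0.5 FPKM. All 8 libraries were fitted with a mean per group, which shares an estimate of the spread. Calls were made at a Benjamini-Hochberg adjusted p under 0.05 over all 14028 tested genes. The standard error of a fold change is its size on the log2 scale over the square root of F. Exact two-sided permutation tests of log2 CPM used SciPy 1.17.1. Motifs were searched on both strands of the RefSeq windows. The steps were tested on simulated data.

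Alternatives were RLE factors, library sizes of total counts with and without mitochondrially encoded genes, no filter, a filter at 5 FPKM, limma 3.58.1 on log2(FPKM + 1) and log2(FPKM + 0.1), DESeq2 1.42.0, a replicate block, each library left out, only the libraries compared, MI and sham as the only groups, and an unadjusted p under 0.05 with at least 2-fold change. The 10 genes, the gene lists and the marker lists were chosen with earlier results of these data known. Named genes were the 10 genes, the 2 called genes with the largest change in each direction of each list, the label checks Esr1 and Piezo1, and for Fbxo32, Trim63, Bnip3 and Pink1 the 3 nearest profiles. The ratio to cardiomyocyte markers and the lists without the library labelled fl/fl-MI 2 were added after seeing the data.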

Additional observations from a re-analysis of the deposited data

How the results depend on the processing

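Fbxo32, Trim63, Trim55 and Foxo3 passed upward after MI in 20 of 20 alternatives and Fundc1 in 17. Values of single genes were followed through the settings for each comparison of groups, and for the interaction for Trim54 alone. When a setting changed, 506 of them kept direction and side of the threshold, 34 moved past it, 10 fell back and 15 turned sign. When a library was left out, 344, 6, 35 and 23 did so. In MI against sham, 9 of the 10 genes passed on total counts and 10 with limma on either FPKM scale, where Trim54 was at 0.28, 0.29 and 0.29 on the log2 scale. It was at 0.029 with cardiomyocyte markers as library size, an alternative added after seeing the data. On total counts and with limma at pseudocounts of 1 and 0.1, Bnip3 in the fl/fl label was at 0.50, 0.43 and 0.44, Bnip3l in the CKO label at 0.50, 0.49 and 0.51, and Foxo1 there at 0.45, 0.35 and 0.45. In the CKO label 8 of the 10 genes passed each time, when 5509, 5164 and 5390 of all tested genes did. Without a filter Bnip3l in CKO was at 0.039, and at 5 FPKM Trim54 there at -0.035. Of the lists, mitophagy had 15 calls on total counts and 15 with limma, autophagy 28 and 27, HIF targets 12 and 12, the proteasome 27 and 27, and FoxO genes 20 on total counts. Total counts and the FPKM scales also moved the median of all genes, to 0.59, 0.41 and 0.56, and the cause of the other shifts was not tested.

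Same-numbered libraries did not deviate together over all tested genes (r from -0.143 to 0.0635). With 2 libraries per group this check cannot settle whether a number pairs samples. With the replicate block 2 genes passed in the fl/fl label in place of 5, and calls over all genes went from 2596 to 1689 there and from 5663 to 5085 for MI against sham. Within fl/fl, 0 passed with only the 4 libraries compared, when 199 of all tested genes did. At an unadjusted p under 0.05 with at least 2-fold change 3 passed, against 15.4% of all tested genes. With single libraries left out, 4 to 6 genes passed for MI against sham, 0 to 7 within fl/fl, 0 to 4 within CKO and 0 to 1 between the MI groups.

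Sign changes with a library left out spanned these log2 ranges. For MI against sham they were -0.10 to 0.25 for Bnip3, -0.14 to 0.26 for Bnip3l and -0.013 to 0.41 for Pink1. Within fl/fl they were -0.49 to 0.21, -0.22 to 0.56 and -0.19 to 0.65 for the same genes. Within CKO they were -0.081 to 0.17 for Trim54, -0.17 to 0.055 for Bnip3l and -0.075 to 0.36 for Pink1. Between the MI groups they were -0.39 to 0.16 for Fbxo32, -0.14 to 0.42 for Trim63, -0.61 to 0.60 for Trim55, -0.51 to 0.27 for Bnip3l and -0.56 to 0.30 for Pink1. Between the sham groups they were -0.16 to 0.014 for Trim54, -0.16 to 0.012 for Bnip3 and -0.19 to 0.049 for Pink1. Each of the 10 genes had at least 865 counts in each library.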
